A study of Arabidopsis thaliana with 2 samples.

Results

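BIK1, NHL10 and EFR are 3 genes of pattern-triggered immunity, the first line of defense that plants mount when plasma membrane receptors recognise conserved microbial molecules. They were taken by gene code (AT2G39660, AT2G35980 and AT5G20480) from the 13504 genes with a named probe set on the Affymetrix ATH1 array, and each had 1 probe set. EFR is the receptor kinase for the bacterial elongation factor Tu, BIK1 is a cytoplasmic kinase that receptor complexes phosphorylate, and NHL10 is a membrane protein of the NDR1/HIN1-like family whose transcript is widely used as an early marker of the response. In csb3 plants the BIK1 signal was 2.65-fold higher than in Col-0 plants and the NHL10 signal at least 4.34-fold higher, whereas EFR lay below the floor used for low signals on both arrays.

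RNA had been taken from whole 5-week-old plants of the csb3 mutant and of wild-type Col-0, with ecotype Col-0 given for both, all grown at 23 °C and 60% humidity under 10 h of light and 14 h of dark, with no treatment named in the labels. csb3 was isolated for constitutive activity of a subtilase promoter from tomato driving the GUS reporter, it carries a defect in HDS, an enzyme of plastid isoprenoid synthesis with no named probe set here, and the labels do not say whether either set of plants held the reporter. The design note gives 5 plants, without saying whether they were pooled for each genotype. The values come from 1 array of csb3 and 1 array of Col-0, so no difference has a replicate check, no p-value is given, and a difference between genotypes cannot be told apart from one between these 2 RNA samples.

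In pattern-triggered immunity a receptor such as EFR, or FLS2 for flagellin, binds its ligand and pairs with the co-receptor BAK1. The complex phosphorylates BIK1, which leaves it and acts on targets that include the NADPH oxidase RBOHD, the source of the oxidative burst. Calcium entry and MAP kinase cascades follow, and transcription of early genes such as NHL10 rises. Folding of EFR depends on quality control in the endoplasmic reticulum, and ubiquitin ligases of the PUB family limit the response by marking receptors or BIK1 for degradation.

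The measurements are MAS5 signals, linear intensities computed by the authors and scaled on each array to the same trimmed mean. Scaling on the spike-in controls, used as an alternative, raised the csb3 signals by 1.06 on the log2 scale. It applies the same factor to every csb3 signal. Whether a gene turns direction with it therefore follows from the signals before scaling and is no separate check of that gene. To keep noise at low signal out of the ratio of csb3 to Col-0, any signal under 50 entered it as 50. Where this applied to 1 of a pair of signals the fold is a minimum and is introduced by "at least", and where it applied to both there is no fold. A gene was counted as up or down when this ratio reached 2-fold. Of 22810 probe sets 12540 were at or above the floor in both genotypes, and their median log2 ratio was 0.08.

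EFR, the receptor, did not reach the floor in either genotype. It had a signal of 49.6 in csb3 and 16.3 in Col-0. The csb3 value missed the floor by 0.4 signal units, so EFR counts among the 8403 probe sets below 50 on both arrays. Of these 9 had a higher csb3 signal, a number that is small because the group ends at 50. Taken without a floor the EFR ratio would be 3.04-fold, with a log2 value of 1.61. Among the 3098 probe sets below 50 on both arrays that reached 25 on at least 1 of them, as EFR did, 218 (7.04%) had an unfloored ratio at least as high as that of EFR and 394 (12.7%) were lower in csb3 by at least as much. With both signals under the floor, EFR is given no fold.

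BIK1, the kinase, was above the floor in both genotypes. It had a signal of 418 in csb3 and 158 in Col-0. This is a log2 ratio of 1.40, and it is larger than the spread of 0.65, an SD of single log2 ratios obtained from 45 genes with more than 1 probe set, which measures differences between probe sets within this pair of arrays and not between plants. Of the probe sets at or above the floor in both genotypes, 348 (2.78%) had a higher ratio than BIK1. Within 0.1 of its log2 ratio, on either side, lay 124 such probe sets. BIK1 is named by the probe annotation and not through the study's list of changed genes, so its name does not depend on its ratio.

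NHL10, the marker gene, was above the floor in csb3 alone. It had a signal of 216.8 in csb3 and 15.8 in Col-0. Its log2 ratio was at least 2.12 with the Col-0 signal set to 50, and the signals as deposited would give 13.7-fold. Among the 9281 probe sets below 50 in Col-0, 234 (2.52%) were up and 73 (0.787%) reached 4-fold, and 63 had a larger bound than NHL10. The probe annotation does not list the NHL10 probe set, which is named through the gene code in the study's list of changed genes, so NHL10 could be found here because it had changed.

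**Figure D1:**
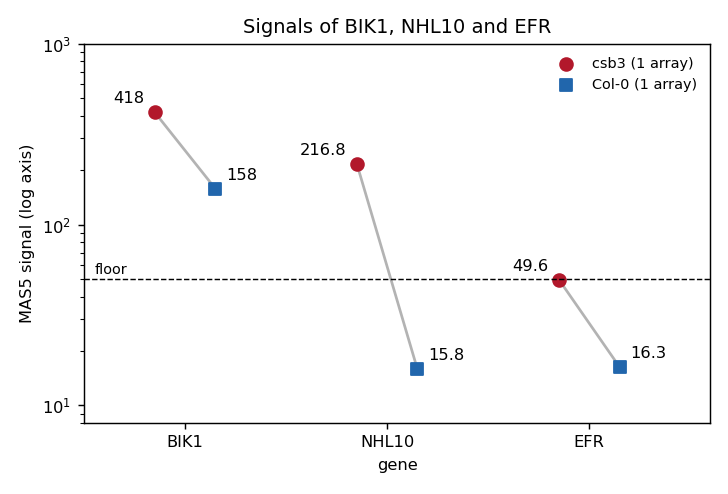
MAS5 signals (log axis) of BIK1, NHL10 and EFR on the csb3 array (circles) and the Col-0 array (squares), 1 array per genotype, with the floor of 50 as a dashed line. BIK1 lies above the floor on both arrays, NHL10 on the csb3 array (216.8 against 15.8 in Col-0), and EFR reaches 49.6 in csb3 and 16.3 in Col-0; signals of different probe sets are not comparable with each other.

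Of the 3 genes 2 were up in csb3, and over all 22810 probe sets 1041 (4.56%) were up and 624 (2.74%) were down. With the csb3 array rescaled on the reference genes TIP41 and SAND, 676 were up and 1128 down, and BIK1 (2.28-fold) and NHL10 (at least 3.74-fold) still passed 2-fold. Among the 13510 probe sets named by the annotation, the source that names BIK1, 3.58% were up. That share includes probe sets below 50 on both arrays, which cannot be up. Of the 12540 probe sets at or above the floor in both genotypes, as BIK1 was, 807 were up. Among the 219 named through the study's list alone 68.5% were up, which is the share to set beside NHL10.

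**Figure D2:**
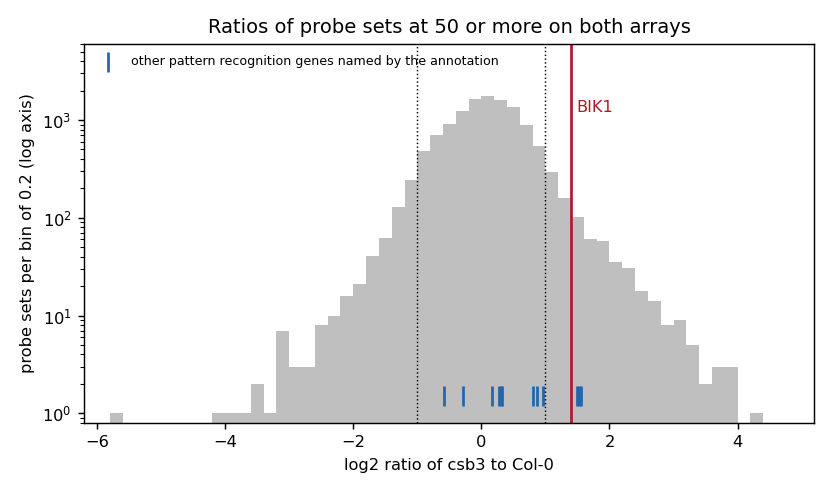
Number of probe sets (log axis) by log2 ratio of csb3 to Col-0, in bins of 0.2, for the 12540 probe sets at or above the floor of 50 in both genotypes; dotted lines mark 2-fold, the red line BIK1 (1.40) and the blue ticks the other pattern recognition genes named by the annotation. BIK1 lies in the upper flank of the distribution, with 348 probe sets beyond it.

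The neighbours of BIK1 on chromosome 2 that were above the floor in both genotypes had lower ratios. Of the 8 nearest protein-coding genes in the RefSeq order (4 on each side), 7 had a named probe set, 4 of them above the floor in both genotypes. None of the 7 reached 2-fold in either direction, or 2 up with spike-in scaling. Over all probe sets 4.56% were up and 2.74% down, and 8492 of 22810 were up with spike-in scaling. With so few genes these counts do not set the region apart. The neighbour before it, AT2G39650, had a signal of 146.7 in csb3 and 131.2 in Col-0. The neighbour after it, AT2G39670, had 228.6 in csb3 and 270.3 in Col-0. EXPA4, an expansin that loosens cell walls, was 1.78-fold lower in csb3 (1.17-fold higher with spike-in scaling), short of the 2-fold rule, with 111.6 in csb3 and 199.1 in Col-0. The other 4 were AT2G39630 (213.4 in csb3 and 140.2 in Col-0) and a further 3 with signals below 50 on both arrays. Around EFR on chromosome 5, 3 of 8 neighbours were named and 0 reached 2-fold, and around NHL10 none of the 8 had a named probe set.

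**Figure D3:**
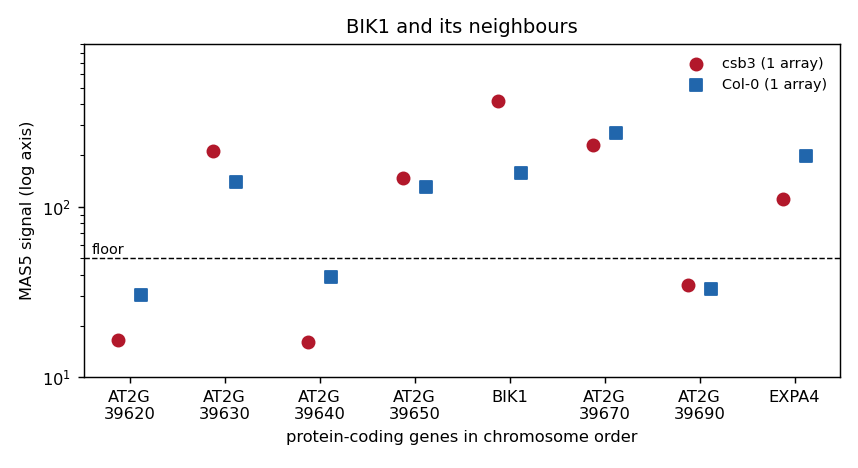
MAS5 signals (log axis) of BIK1 and its 7 named neighbours in chromosome order on the csb3 array (circles) and the Col-0 array (squares), with the floor of 50 as a dashed line. The pair of points is furthest apart at BIK1 (418 in csb3 and 158 in Col-0) among the genes above the floor.

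Genes that act with the 3 were taken from a list of 85 genes of pattern recognition, of which 21 had a named probe set. Besides BIK1, NHL10 and EFR these were 18 genes, 16 of them named by the annotation and 2 through the study's list. Of the 16, 3 (18.8%) were up, 0 were down and 13 were neither, where 3.58% of all annotated probe sets were up and 2.65% were down. Those shares include probe sets below 50 on both arrays, which cannot be called, whereas 14 of the 16 had 50 or more on an array. Over the 12540 probe sets at or above the floor in both genotypes, 807 were up and 550 down. Among the 16 genes, 12 were above the floor in both genotypes. Their median log2 ratio was 0.56, beside 0.08 over all such probe sets. The list was chosen with earlier results of these data known. Its share of genes up and its median, beside those of all probe sets, are therefore a description and no independent test. Fewer than 80% of the listed genes could be named, so the counts describe the named genes and not the pathway. FLS2, BAK1, RBOHD and all 11 listed MAP kinase cascade genes have no named probe set here.

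Among receptors, MIK2, a leucine-rich repeat receptor kinase that perceives SCOOP peptides, had a signal of 1741 in csb3 and 615.4 in Col-0, a 2.83-fold difference. RLP23, a receptor-like protein for a peptide of necrosis-inducing proteins, had 718.4 in csb3 and 125.9 in Col-0, a 5.71-fold difference, and is named through the study's list. LORE, a lectin receptor kinase for bacterial fatty acids, had 208.2 in csb3 and 166.0 in Col-0 and was short of 2-fold. Receptor kinases related to EFR in sequence did not pass the rule either. AT3G47570 had 79.6 in csb3 and 70.7 in Col-0, and AT3G47110 and AT5G39390 were below 50 on both arrays.

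Among proteins that join receptor complexes, IOS1, a receptor kinase associated with FLS2 and EFR, had 126.2 in csb3 and 4.9 in Col-0, at least 2.52-fold higher (at least 1.26-fold with a floor of 100), and is named through the study's list. FER, which scaffolds FLS2 and BAK1, had 1254 in csb3 and 1012 in Col-0. BIR3, a pseudokinase that holds BAK1 away from receptors, had 411.3 in csb3 and 502.7 in Col-0, an order that turned with spike-in scaling (log2 ratio 0.77). Neither FER nor BIR3 reached 2-fold. ERDJ3B, a co-chaperone of the endoplasmic reticulum that EFR needs in order to accumulate, was 2.88-fold higher, with 1128 in csb3 and 392.3 in Col-0. It is the single gene with a named probe set among 6 listed for EFR folding.

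BIK1 belongs to subfamily VII of the receptor-like cytoplasmic kinases. Of 5 members found by a PBL symbol or as BIK1 or PBS1, the other one with a named probe set was PBL27, which acts in chitin signalling, and its signal was 1.4 on each array. PCRK1 and PCRK2, which belong to the same subfamily without bearing such a symbol and act downstream of receptors, had log2 ratios of 0.27 and 0.80. PCRK2 had 211.7 in csb3 and 121.5 in Col-0 and so was short of 2-fold, whereas BIK1 passed it. OSCA1.3, a calcium channel that BIK1 phosphorylates in guard cells, had 45.4 in csb3 and 86.2 in Col-0 and was at least 1.72-fold lower, or 1.10-fold higher with spike-in scaling.

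Ubiquitin ligases were found at 2-fold in both directions. PUB23, one of a trio with PUB22 and PUB24 that dampens pattern-triggered immunity, was 2.94-fold higher, with 161.8 in csb3 and 55.1 in Col-0, or at least 1.62-fold with a floor of 100. PUB24 had 373.8 in csb3 and 191.4 in Col-0, which is 1.95-fold and just short of the rule, and PUB22 had 42.2 in csb3 and 52.8 in Col-0, an order that turned with spike-in scaling. PUB25 and PUB26, which mark BIK1 itself for degradation, were outside the list and were looked at after their values had been seen. PUB26 had 68.8 in csb3 and 169.9 in Col-0, a 2.47-fold lower signal, which was at least 1.70-fold lower with a floor of 100 and 1.18-fold lower with spike-in scaling. PUB25 had 62.1 in csb3 and 126 in Col-0, 2.03-fold lower, a direction that turned with scaling on the spike-in controls (log2 ratio 0.040). Of 23 genes with a PUB symbol 9 had a named probe set, all by the annotation, and 2 were up, 2 down and 5 neither, where 3.58% of all annotated probe sets were up and 2.65% were down. Those shares include probe sets below 50 on both arrays, whereas 8 of the 9 had 50 or more on an array. Over the 12540 probe sets at or above the floor in both genotypes, 807 were up and 550 down. With spike-in scaling 4 of the PUB genes were up and 0 down, where 8492 of 22810 probe sets were up and 66 down.

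NHL10 was the 1 early response gene that passed the rule. Of 11 such genes on the list 3 had a named probe set. NHL10 is named through the study's list of changed genes alone, where 68.5% of the probe sets so named were up. The other 2 are named by the annotation, where 3.58% were up, and neither passed. WRKY53, a transcription factor of early defense and leaf senescence, had 281.2 in csb3 and 153.4 in Col-0. WRKY22, which acts below the MAP kinases in flagellin signalling, had 67.8 in csb3 and 101.2 in Col-0. Both were short of 2-fold, at log2 ratios of 0.87 and -0.58, and that of WRKY22 turned to 0.48 with spike-in scaling. Of 10 genes of the NHL family found by symbol, NHL10 alone had a named probe set, so its relatives could not be set beside it.

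**Figure D4:**
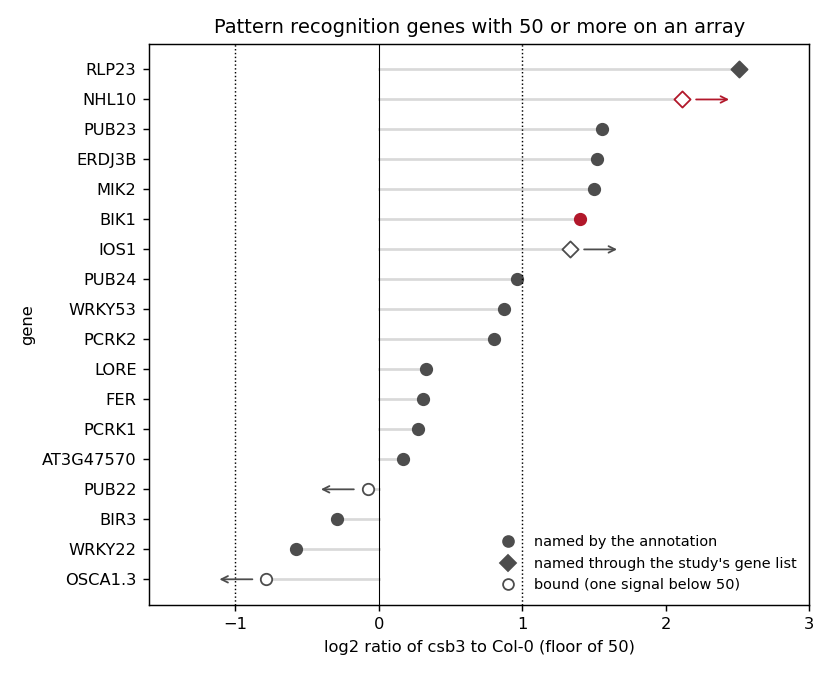
Log2 ratio of csb3 to Col-0 (signals below 50 set to 50) for the 18 listed pattern recognition genes with 50 or more on at least 1 array, sorted by ratio; circles are named by the annotation, diamonds through the study's gene list, open symbols with arrows are bounds, and dotted lines mark 2-fold. BIK1 (1.40) and NHL10 (at least 2.12), in red, are among 7 genes at or beyond 2-fold up, and no gene is at 2-fold down. The list was chosen with earlier results of these data known, so these counts are a description.

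The genes with a ratio nearest to that of BIK1, by difference of log2 ratios over the 2 arrays, were AT2G31390 (721.7 in csb3 and 272.8 in Col-0), the autophagy protein gene ATG8B (216.5 in csb3 and 82.1 in Col-0) and the aldehyde dehydrogenase gene ALDH7B4 (1875 in csb3 and 712.1 in Col-0). Nearest to NHL10, by distance of the log2 signals on both arrays, were WAK3, a wall-associated kinase (211.8 in csb3 and 16.4 in Col-0), GH3.3, an enzyme that conjugates auxin to amino acids (207.8 in csb3 and 15.3 in Col-0), and NRT1.8, a nitrate transporter (203.7 in csb3 and 15.2 in Col-0). WAK3 and NRT1.8 are named through the study's list. With 1 array per genotype such likeness rests on a single ratio for each gene.

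Other differences between the 2 samples stood beside these results. NHL10 also bears the name YLS9, from its discovery in yellowing leaves. SAG12, the usual marker of leaf senescence, had 483.9 in csb3 and 13.3 in Col-0, at least 9.68-fold higher. SAG12 is the single senescence gene looked at and, like NHL10, is named through the study's list of changed genes, so it could be found here because it had changed. The leaf gene RCA had 7432 in csb3 and 12691 in Col-0, an order that also turned with spike-in scaling. Of 3 root markers, PYK10 had 1220 in csb3 and 27.8 in Col-0, and the root hair expansins EXPA7 and EXPA18 stayed under the floor in both genotypes, while no flower or seed marker had a named probe set. In bulk tissue a change in the share of an organ and a change in RNA per cell cannot be told apart. All 18 spike-in controls were lower in csb3, by a median of -0.98 on the log2 scale, and the 3′ to 5′ signal ratio of actin, a sign of RNA quality, was 4.91 in csb3 and 2.06 in Col-0. That of GAPDH was 1.40 in csb3 and 1.29 in Col-0, and that of ubiquitin was 1.98 in csb3 and 2.66 in Col-0, so the 3 ratios did not all differ in 1 direction. Scaled on the spike-in controls, BIK1 was 5.52-fold higher, NHL10 at least 9.04-fold and EFR at least 2.07-fold. The part of senescence, organ content, RNA quality and labelling in the BIK1 and NHL10 ratios was not tested.

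BIK1 passed 2-fold under each of the 10 ways of processing in which it had a value, main one included, with folds between 2.28 and 5.52. Both BIK1 signals lie above 100, so the settings that only change or drop the floor had to return the same fold. The count of settings passed is therefore no measure of how repeatable the difference is. NHL10 passed 2-fold under each of 9, and its fold ran from at least 2.17 with a floor of 100 to 13.7 with no floor. Signals of 216.8 in csb3 and 15.8 in Col-0 had to pass at every floor used, so its count is no such measure either. EFR passed 2-fold under 3 of 9: at least 2.48-fold with a floor of 20, 3.04-fold with no floor and at least 2.07-fold with spike-in scaling.

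**Figure D5:**
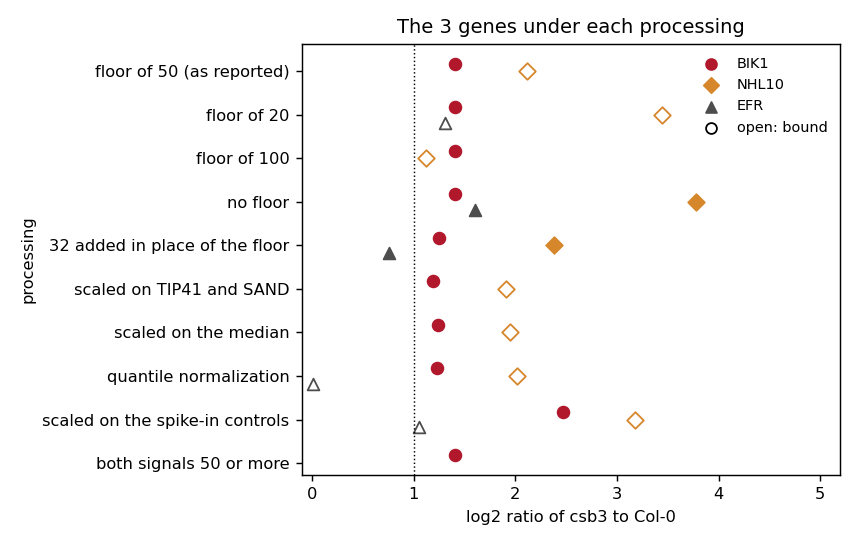
Log2 ratio of csb3 to Col-0 for BIK1 (circles), NHL10 (diamonds) and EFR (triangles) under each processing, with bounds as open symbols and 2-fold as a dotted line; settings where both signals of a gene lay below the floor have no symbol. BIK1 stays between 1.19 and 2.46, NHL10 moves with the floor between 1.12 and 3.78, and EFR appears on both sides of 2-fold.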

How the data were processed

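The authors deposited an intensity for each probe set and array, computed with MAS5 (version not given in the sources used here) on a linear scale. With 2% of probe sets trimmed at either end the mean was 250 on each array, the target to which the authors scaled. SAM on triplicates, described in the methods, needs more than 1 array per genotype. Signals below 50 were set to 50 and log2 ratios of csb3 to Col-0 were computed with Python 3.11.15, NumPy 2.4.6 and pandas 2.3.3 and drawn with matplotlib 3.10.9. The computation of the 2-fold calls was checked on simulated signals with exact planted changes well beyond 2-fold. That check does not measure the error of calls in these data. The number of arrays limits the precision.

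Of all probe sets, the annotation names 13513 with a single gene and 503 with more than 1, and leaves 8794 out. Of those left out, 219 were named by gene code through the study's supplementary list of changed genes, and 3 with conflicting names were left out. Symbols come from RefSeq (TAIR10.1), used for names and gene order alone because no build is stated for the array. All genes of the list at 2-fold were named, with 3 genes nearest to BIK1 and to NHL10. Chromosome neighbours, other PUB genes and receptor families were added after the signals had been seen. The members and lists were chosen with earlier results of these data known. Comparison columns of the supplementary list (signal log ratios, detection and change calls) were not used. Motif and protein comparisons were planned and not run, since no sequences were used here.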

Additional observations from a re-analysis of the deposited data

How the results depend on the processing

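No paired analysis was possible because there was a single array of either genotype. Log2 ratios are given for csb3 over Col-0, and a value was taken to have moved when it changed by more than 0.65, the spread between probe sets of a gene. BIK1 moved with spike-in scaling (2.46). NHL10 was 3.44 with a floor of 20, 1.12 with a floor of 100, 3.78 with no floor and 3.18 with spike-in scaling. EFR was 1.31, 1.61 and 1.05 with a floor of 20, no floor and spike-in scaling, and 0.76 with 32 added to every signal. Members up were 2, or 3 under each of those first 3 settings, and 1 when a signal of 50 or more was required in both genotypes, where NHL10 and EFR have no value and the 2 families had 1 gene up. The pattern recognition list had 7 genes up, 15 with spike-in scaling and 4 with the probe annotation alone, and 0 down, or 2 with no floor, AT3G47110 and AT5G39390, both below 50 on each array. Of 7 named list and PUB genes lower in csb3 and at 50 or more on an array, 6 turned to higher with spike-in scaling. These were BIR3 (0.77), OSCA1.3 (0.14), PUB19 (0.30), PUB22 (0.74), PUB25 (0.040) and WRKY22 (0.48). That scaling applies the same factor to every csb3 signal, so which genes turned follows from their signals before it. Its effect on EXPA4, RCA, the BIK1 neighbours and the PUB counts was looked at after seeing the data. For the 21 other named genes, 158 of 186 values stayed within the spread, but none of the 21 genes did so with spike-in scaling. The 158 include changes of the floor that cannot alter a gene with both signals above it.

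Over all probe sets, 2698 were up and 3559 down with no floor, 676 and 1128 with scaling on TIP41 and SAND, and 8492 and 66 with spike-in scaling. Down calls were 1291 with a floor of 20 and 994 with median scaling. The scalings shifted the median log2 ratio by -0.21 (TIP41 and SAND), -0.17 (median), -0.15 (quantile) and 1.06 (spike-in), and the cause of the spike-in shift was not tested. Signal over background limits NHL10 and EFR, which were below 50 in Col-0 as were 9281 probe sets there.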

Other observations

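Receptor-like gene families searched by symbol after the data were seen hold further genes named through the study's list of changed genes alone. Of 44 genes of the cysteine-rich receptor-like kinase family 7 had a named probe set, and 0 of these were named by the annotation. All 7 were up in csb3, where 68.5% of the probe sets named through the study's list alone were up. The other genes of the family could not be seen here, so the count does not describe the family. The probe set of CRK6, among the 7, can read more than 1 gene. ARCK1, a member that represses abscisic acid and osmotic stress responses, had a signal of 519.3 in csb3 and 75.1 in Col-0, a 6.91-fold difference, and CRK36 had 312.1 in csb3 and 30.3 in Col-0, at least 6.24-fold higher. Of 52 receptor-like protein genes 3 had a named probe set, all through the study's list, and 2 were up. These were RLP23, given above, and RLP34, which had 383.7 in csb3 and 61.3 in Col-0. RLP34 differed 6.26-fold, from a probe set that can read more than 1 gene, and RLP11 was below 50 on both arrays. The list holds genes picked for a change on these arrays, so the direction of its members is a description.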
